A study of Caenorhabditis elegans with 14 samples.

Results

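The furrow and body-shape collagens are cuticle collagens of Caenorhabditis elegans whose loss changes the shape of the worm. The set was given by name as 10 genes, of which dpy-2, dpy-3, dpy-7, dpy-8 and dpy-10 are furrow collagens and dpy-4, dpy-5, dpy-13, rol-6 and sqt-3 are other body-shape collagens. Its measurements were all probe sets that the platform annotation assigns to 1 of these genes and to no other. These came to 11 probe sets for 9 genes, out of 22548 tested probe sets and 17118 genes. The genes dpy-2 and sqt-3 had 2 probe sets each, and dpy-10 had 0 in that annotation and was not analysed here. All 10 genes were found in the RefSeq gene table, where dpy-2, dpy-10 and rol-6 lie on chromosome II, dpy-3, dpy-7 and dpy-8 on X, dpy-4 and dpy-13 on IV, dpy-5 on I and sqt-3 on V.

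Signals were measured in whole worms on 14 Affymetrix arrays, each reporting a log2 signal per probe set. The groups were adults mutant for daf-19 and daf-12 (3 arrays), adults mutant for daf-12 alone (3 arrays), first-stage larvae (L1) mutant for both genes (4 arrays) and L1 larvae mutant for daf-12 alone (4 arrays). They are called mutants and controls below, and the control worms are not wild type, since every worm carried a daf-12 mutation. The labels name no allele of either gene and call the replicates biological without saying how they were grown. The adults are titled young adults, and the growth protocol takes them 50 hours past the L4 stage. The gene daf-19 encodes an RFX transcription factor best known for switching on genes of sensory cilia, and daf-12 encodes a nuclear hormone receptor of developmental timing and dauer formation. The study's stated aim was to follow what DAF-19 controls at different stages of life.

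The cuticle is the extracellular coat of the worm, secreted by the epidermis and replaced at each larval moult. Most of it is collagen, made as procollagen chains that are hydroxylated, trimmed, assembled and cross-linked. Circumferential furrows cross its surface, and the furrow collagens form bands there that depend on one another. Loss of a furrow collagen makes the worm short and fat (dumpy) and is known to switch on antimicrobial, osmotic and detoxification genes in the epidermis. Collagen transcripts are known to peak at set times within each moulting cycle.

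Transcripts of daf-19 itself were measured first. Probe set 190486_s_at of that gene measured 6.65 to 6.76 in adult mutants, against 7.24 to 7.42 in adult controls (difference -0.64, SE 0.12, limma adjusted p = 0.0163). At L1 it measured 5.77 to 6.08 in mutants, against 6.42 to 6.89 in controls (difference -0.69, SE 0.10, limma adjusted p = 0.00281). A second probe set, 175811_s_at, fell by 0.70 at L1 (limma adjusted p = 0.0125), and its adult difference of -0.56 did not pass (limma adjusted p = 0.105). Germline and embryo markers averaged 11.2 to 11.5 on the adult arrays and 4.60 to 4.97 on the L1 arrays.

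One array stood apart for these collagens. Adult control array 1 differed from the mean of adult control arrays 2 and 3 by a median of -0.565 over the 11 member probe sets, whereas the median over all probe sets was 0.03. On the other 13 arrays the same median deviation from the rest of the group ranged from -0.163 to 0.36. Adult control array 1 was below both other adult controls in 9 of 11 member probe sets, against 31.8% of all probe sets, and was level with control array 3 in dpy-5. Its daf-19 signal lay with the other controls, at 7.35 for 190486_s_at. The adult difference of each member is therefore given with and without this array. Leaving out each array in turn was planned, but this array is singled out because the members were low on it. The choice by itself moves the members' differences downward. The p-values and counts without this array, for the members and for the other genes below, depend on that choice and are given as a description.

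**Figure D1:**
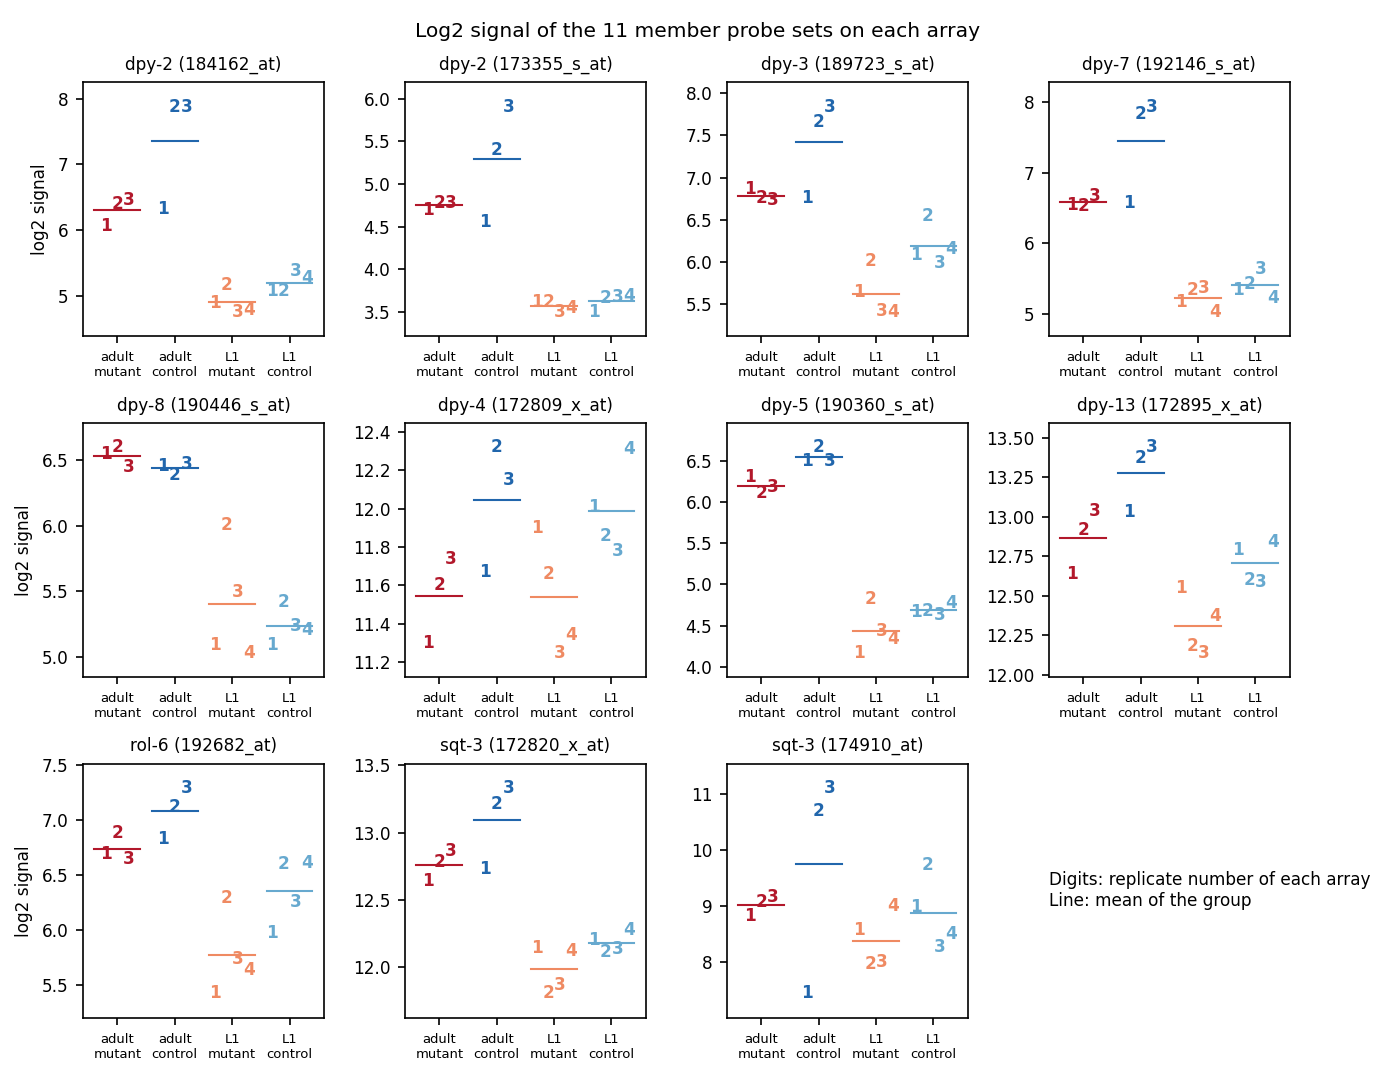
Log2 signal of each member probe set (one panel per probe set, vertical axis) on every array, by group along the horizontal axis, with adult mutants, adult controls, L1 mutants and L1 controls from left to right; digits give the replicate number of each array and lines are group means. In dpy-2, dpy-3 and dpy-7 adult control array 1 sits at the level of the adult mutants, while adult control arrays 2 and 3 sit above them.

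In adults the furrow collagens dpy-2, dpy-3 and dpy-7 had lower signals in all 3 mutant arrays than in control arrays 2 and 3, but not than in control array 1. With all arrays, 0 of 11 member probe sets passed the test between genotypes in limma, where 1.02% of all probe sets passed. Of the members, 10 of 11 had a difference below 0, against 41.5% of all probe sets, and the median difference was -0.50, against 0.02 over all. An unadjusted limma p under 0.05 was reached by 8 of 11, against 7.88% of all probe sets. In whole worms, fewer epidermal cells and less RNA per cell cannot be told apart.

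DPY-2 is a furrow collagen. Its brighter probe set, 184162_at, measured 6.06, 6.40 and 6.46 in adult mutants, against 6.33, 7.88 and 7.87 in adult controls. The control arrays 2 and 3 were well above every mutant array, and control array 1 lay within the mutant range. The difference was -1.05 (SE 0.30, limma adjusted p = 0.166) with all arrays, and dpy-2 was 2.97-fold lower in mutants without control array 1 (log2 difference -1.57, SE 0.15, limma adjusted p = 2.96e-05). The dimmer probe set, 173355_s_at, measured 4.69, 4.78 and 4.78 in adult mutants, against 4.56, 5.40 and 5.91 in adult controls. Control array 1 lay below all mutant arrays here, and control arrays 2 and 3 lay above them. Its difference was -0.54 (SE 0.22, limma adjusted p = 0.509) with all arrays and -0.905 without control array 1 (limma adjusted p = 0.0008).

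The furrow collagen dpy-7, whose promoter is widely used to drive transgenes in the epidermis, followed dpy-2. It measured 6.54, 6.53 and 6.67 in adult mutants, against 6.57, 7.83 and 7.94 in adult controls. The mutant arrays spanned a narrow range that held control array 1, and control arrays 2 and 3 lay above it. The difference was -0.87 (SE 0.26, limma adjusted p = 0.195), and dpy-7 was 2.47-fold lower in mutants without control array 1 (limma adjusted p = 4.36e-05). The furrow collagen dpy-3 measured 6.86, 6.76 and 6.73 in adult mutants, against 6.76, 7.66 and 7.84 in adult controls. Its control array 1 again lay among the mutants. The difference was -0.64 (SE 0.24, limma adjusted p = 0.395), and dpy-3 was 1.95-fold lower in mutants without control array 1 (limma adjusted p = 0.00768).

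The fourth measured furrow collagen, dpy-8, did not follow this order. It measured 6.55, 6.60 and 6.45 in adult mutants, against 6.46, 6.39 and 6.47 in adult controls. All 6 arrays lay close together, and control array 1 lay between the other controls. The difference was 0.09 (SE 0.19, 95% interval -0.32 to 0.50, limma adjusted p = 0.999) with all arrays and 0.10 without control array 1 (limma adjusted p = 0.966).

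Among the body-shape collagens, dpy-5 was the only member whose 3 adult mutant arrays all lay below all 3 control arrays, an order that 5.89% of all probe sets showed. It measured 6.31, 6.11 and 6.19 in adult mutants, against 6.50, 6.67 and 6.50 in adult controls. The gap was small and control array 1 was level with control array 3. The difference was -0.35 (SE 0.13, limma adjusted p = 0.404), and -0.38 without control array 1 (limma adjusted p = 0.300).

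The collagen dpy-13, which gives a dumpy shape when mutated, measured 12.64, 12.92 and 13.04 in adult mutants, against 13.03, 13.37 and 13.44 in adult controls. Control array 1 was a little below the highest mutant array. The difference was -0.41 (SE 0.14, limma adjusted p = 0.309), and -0.54 without control array 1 (limma adjusted p = 0.0648). The collagen dpy-4 measured 11.30, 11.60 and 11.74 in adult mutants, against 11.67, 12.32 and 12.15 in adult controls. Its groups overlapped through control array 1 alone, with differences of -0.50 (SE 0.20, limma adjusted p = 0.474) and, without that array, -0.69 (limma adjusted p = 0.0953).

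The gene rol-6, whose dominant mutations make worms roll and mark transgenic lines, measured 6.69, 6.88 and 6.65 in adult mutants, against 6.83, 7.12 and 7.29 in adult controls. The groups overlapped by 1 mutant array. The difference was -0.34 (SE 0.21, limma adjusted p = 0.895), and -0.47 without control array 1 (limma adjusted p = 0.475).

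The collagen gene sqt-3, whose mutations can give dumpy or rolling worms, was read by 2 probe sets that differed in spread. Probe set 172820_x_at measured 12.64, 12.78 and 12.86 in adult mutants, against 12.73, 13.21 and 13.33 in adult controls. Its difference was -0.33 (SE 0.14, limma adjusted p = 0.544), and it was 1.42-fold lower in mutants without control array 1 (limma adjusted p = 0.0311). Probe set 174910_at measured 8.83, 9.07 and 9.16 in adult mutants, against 7.44, 10.69 and 11.10 in adult controls. Here control array 1 was the lowest of the 6 adult arrays and control arrays 2 and 3 were the highest. The difference was -0.72 (SE 0.69, limma adjusted p = 0.999), and it was 3.67-fold lower in mutants without control array 1 (limma adjusted p = 0.0113). Names ending in _x_at or _s_at mark probe sets that can bind transcripts of more than 1 gene or isoform, and the collagen genes resemble one another, so that only 184162_at, 192682_at and 174910_at lack that mark among the members.

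**Figure D2:**
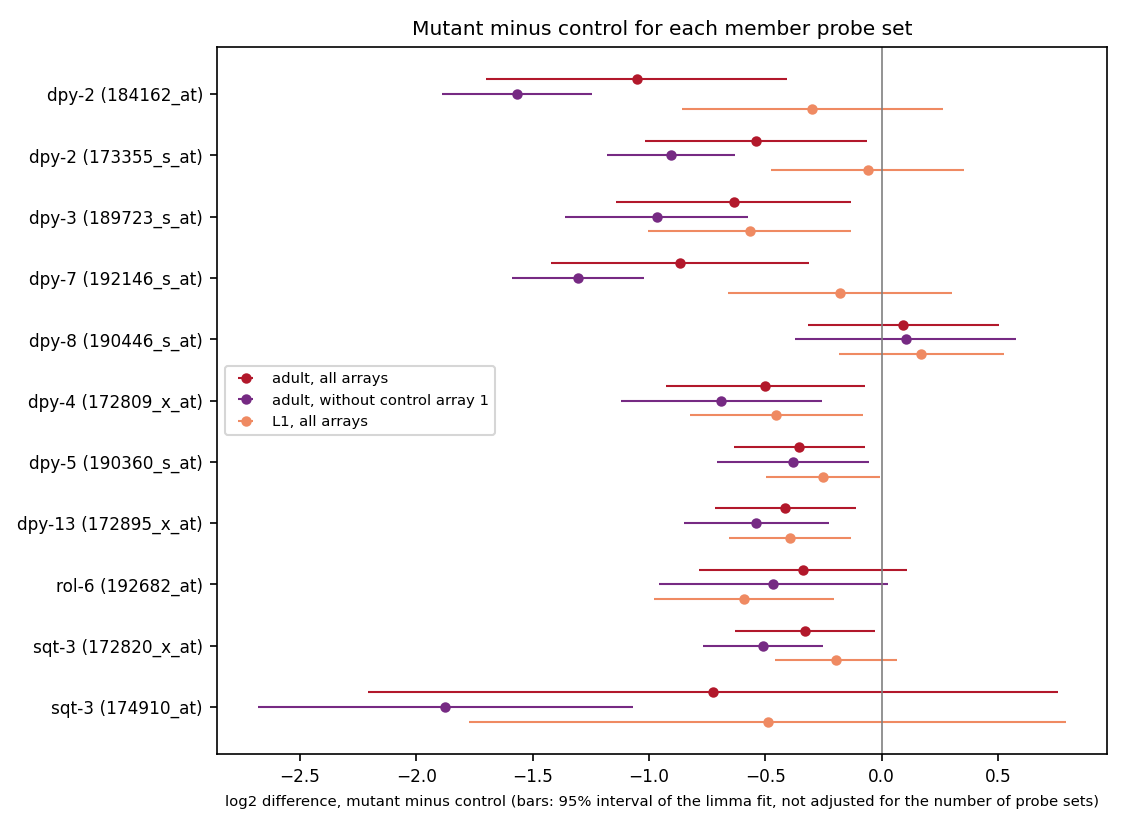
Log2 difference between mutants and controls (horizontal axis) for each member probe set, with 95% intervals of the limma fit that are not adjusted for the number of probe sets; adults with all arrays, adults without control array 1 and L1 with all arrays run from top to bottom within each probe set. Without control array 1 the adult intervals of both dpy-2 probe sets, dpy-3, dpy-7 and both sqt-3 probe sets lie further below 0 than with it, and dpy-8 stays near 0.

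Without adult control array 1, 6 of 11 member probe sets were lower in mutants by limma, where 2.82% of all probe sets were called lower. They were both probe sets of dpy-2, those of dpy-3 and dpy-7, and both of sqt-3, and the median over the members was -0.69. Since the array was singled out by these same signals, the count is no independent evidence of a difference between genotypes. Leaving out any other array gave 0 of 11 in adults. With limma's array weights, which let arrays of larger spread count less, 8 of 11 passed, where 8.85% of all probe sets did. The probe sets of dpy-8 and rol-6 and sqt-3 174910_at did not pass. The weights were 0.520 for adult control array 1, 5.03 for control array 2 and 1.00 for control array 3. Control array 1 thus counted little here too. Over the 23 alternatives tried, the adjusted p of dpy-2 184162_at ranged from 2.96e-05 to 0.737 and that of dpy-7 from 4.36e-05 to 0.797. Those of dpy-3 and of sqt-3 172820_x_at reached 1 where adult control array 2 or 3 was left out. Adult control array 1 differed from the mean of control arrays 2 and 3 by -1.545 in dpy-2 184162_at and by -3.455 in sqt-3 174910_at. A gap of at least 1 in that direction was found in 1.22% of all probe sets. The residual SD of the fit was correspondingly large, at 1.00 for sqt-3 174910_at and 0.431 for dpy-2 184162_at, against a median of 0.153 over all probe sets.

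Other matrix genes were low on the same array. All 13 measured genes of the moulting and apical matrix list lay lower on adult control array 1 than on the mean of control arrays 2 and 3, with a median gap of -0.71. Their mean level was 6.17 to 6.24 in adult mutants, against 5.99, 6.90 and 6.99 in adult controls. The 4 measured furrow collagens averaged 6.50 to 6.58 in adult mutants, against 6.53, 7.44 and 7.53 in adult controls. On the list of other body-shape and blister collagens, 10 of 11 were lower on control array 1, with a median gap of -0.205.

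Named after their values were seen, the cuticle collagens dpy-14 and dpy-17 had the largest gaps among the other body-shape and blister collagens. The gene dpy-14 measured 7.88, 7.96 and 8.22 in adult mutants, against 6.74, 9.97 and 10.21 in adult controls. The gene dpy-17 measured 9.29, 9.41 and 9.38 in adult mutants, against 8.14, 11.07 and 11.29 in adult controls. Both had control array 1 lowest of all 6 arrays, as sqt-3 174910_at did. With all arrays the differences were -0.95 (limma adjusted p = 0.915) in dpy-14 and -0.81 (limma adjusted p = 0.950) in dpy-17. Without control array 1 they were -2.07 (limma adjusted p = 7.74e-07) and -1.82 (limma adjusted p = 8.77e-06). Both genes were named for their gap on the array left out, so the p-values without it are no independent evidence of a difference between genotypes.

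Markers of other cells moved on that array too. The 3 pharynx markers averaged 5.63 to 5.75 in adult mutants, against 5.56, 6.17 and 6.24 in adult controls, and all 3 were lower on control array 1 (median gap -0.79). The 9 germline and embryo markers averaged 11.36 to 11.48 in adult mutants, against 11.46, 11.29 and 11.19 in adult controls, and 8 of 9 were higher on control array 1 (median gap 0.25). The median gap was -0.28 over 5 intestine markers, 0.03 over 5 body muscle markers, -0.20 over 5 neuron markers and -0.245 over 11 seam and epidermal markers. The Gapdh 3' minus 5' signal, a measure of how far labelling ran along the transcript, was -0.54 to -0.39 in adult mutants, against -0.38, -0.36 and -0.44 in adult controls. The part of these levels in the collagen differences was not tested.

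**Figure D3:**
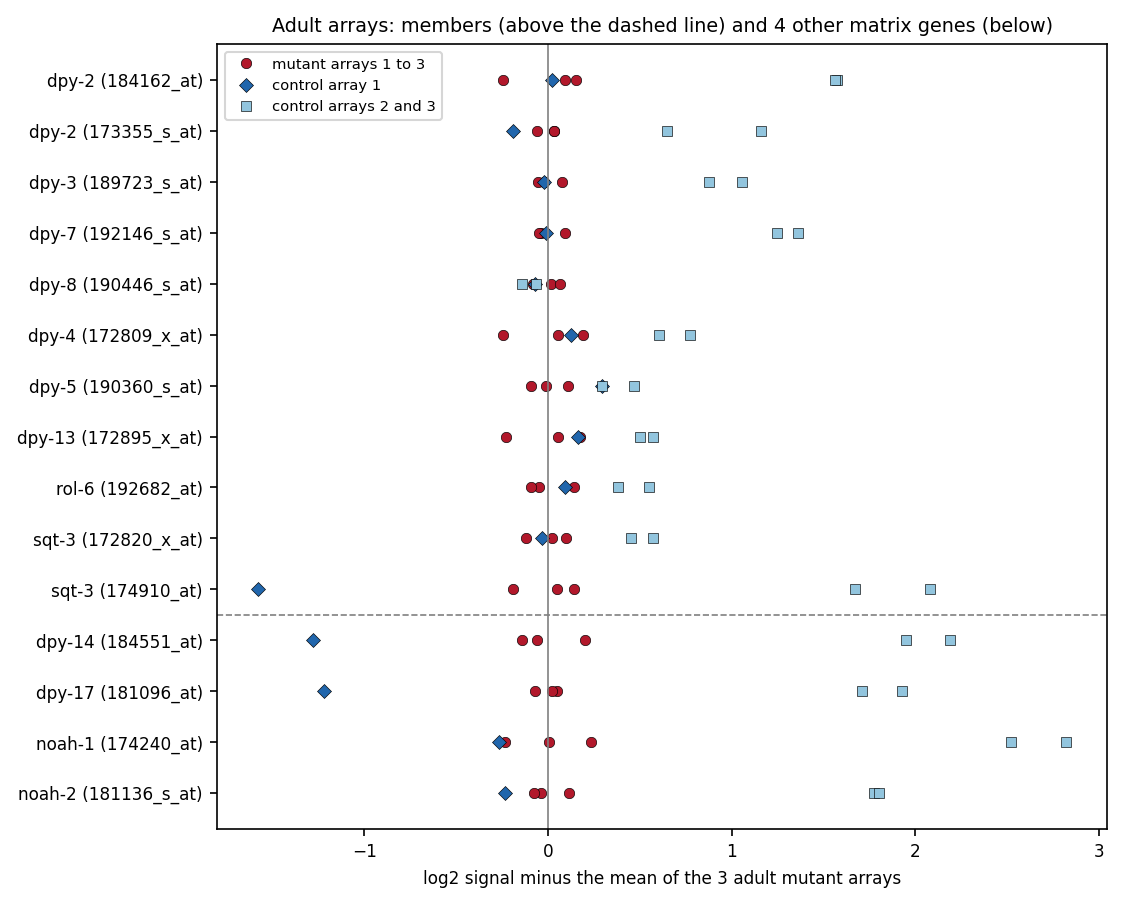
Log2 signal minus the mean of the 3 adult mutant arrays (horizontal axis) for each member probe set and, below the dashed line, for dpy-14, dpy-17, noah-1 and noah-2; each point is 1 adult array. Control array 1 lies at or below the mutants in dpy-2, dpy-3, dpy-7, sqt-3 and the 4 added genes, and control arrays 2 and 3 lie to the right of the mutants except in dpy-8.

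At L1 the members again lay mostly lower in mutants, by small amounts that did not pass the main test, which leaves the replicate numbers out. By limma 0 of 11 passed, where 1.14% of all probe sets did, and 5 of 11 reached an unadjusted p under 0.05, where 9.87% of all probe sets did. The difference was below 0 in 10 of 11, against 47.9% of all probe sets, with a median of -0.30, against 0.005 over all. The labels state no pairing, but same-numbered L1 arrays deviated together, so the replicate numbers were taken to pair them. With the replicate number as a block 2 of 11 members passed, dpy-13 and rol-6, where 2.33% of all probe sets did.

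The gene dpy-13 was the only member whose 4 L1 mutant arrays all lay below all 4 control arrays, an order that 2.52% of all probe sets showed. It measured 12.55, 12.18, 12.14 and 12.37 in L1 mutants, against 12.79, 12.60, 12.59 and 12.84 in L1 controls. Its difference was -0.395 (SE 0.12, limma adjusted p = 0.191, and 0.0222 with the replicate block). The gene rol-6 measured 5.42, 6.29, 5.73 and 5.63 in L1 mutants, against 5.97, 6.60, 6.25 and 6.61 in L1 controls. Each mutant array lay below the control array of its own number, although mutant array 2 exceeded control arrays 1 and 3. That paired order was not particular to rol-6. It also held at L1 for dpy-3, dpy-4, dpy-7, dpy-13 and the _x_at probe set of sqt-3. Its share among all probe sets was not counted. The difference of rol-6 was -0.59 (SE 0.18, limma adjusted p = 0.183, and 0.0299 with the replicate block). With L1 mutant array 2 left out it was -0.76 (limma adjusted p = 0.0349), the only call at L1 when 1 array was left out (1 of 11, where 1.1% of all probe sets passed). Over the 23 alternatives the adjusted p ranged from 0.0222 to 0.432 for dpy-13 and from 0.0299 to 0.568 for rol-6.

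Among the furrow collagens at L1, dpy-3 measured 5.65, 6.01, 5.42 and 5.41 in mutants, against 6.08, 6.54, 5.99 and 6.15 in controls. Only mutant array 2 reached the control range. The difference was -0.57 (SE 0.20, limma adjusted p = 0.307). The gene dpy-7 measured 5.17, 5.34, 5.36 and 5.03 in L1 mutants, against 5.34, 5.42, 5.64 and 5.22 in L1 controls, and the groups overlapped (difference -0.18, limma adjusted p = 0.920). Probe set 184162_at of dpy-2 measured 4.90, 5.17, 4.76 and 4.78 in L1 mutants, against 5.07, 5.08, 5.38 and 5.27 in L1 controls, with mutant array 2 inside the control range (difference -0.30, limma adjusted p = 0.842).

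The second dpy-2 probe set, 173355_s_at, was dim on all 8 L1 arrays, at 3.50 to 3.62 in mutants and 3.50 to 3.69 in controls, below the lower quartile of each array. The L1 difference there was -0.06 (limma adjusted p = 0.982). The gene dpy-8 measured 5.09, 6.01, 5.49 and 5.03 in L1 mutants, against 5.09, 5.42, 5.23 and 5.20 in L1 controls. Mutant array 2 was the highest of the 8. The difference was 0.17 (limma adjusted p = 0.867), and -0.03 without mutant array 2.

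The remaining body-shape collagens overlapped between the genotypes at L1. The gene dpy-4 measured 11.90, 11.66, 11.25 and 11.34 in L1 mutants, against 12.01, 11.86, 11.78 and 12.31 in L1 controls (difference -0.45, limma adjusted p = 0.352). The gene dpy-5 measured 4.17, 4.82, 4.43 and 4.33 in L1 mutants, against 4.67, 4.68, 4.63 and 4.78 in L1 controls (difference -0.25, limma adjusted p = 0.485). Each had 3 of its 4 mutant arrays below all controls. Probe set 172820_x_at of sqt-3 measured 12.14, 11.80, 11.86 and 12.12 in L1 mutants, against 12.20, 12.11, 12.13 and 12.27 in L1 controls (difference -0.20, limma adjusted p = 0.697). Probe set 174910_at of sqt-3 spread widely, at 8.57, 7.96, 8.0 and 9.0 in L1 mutants, against 8.99, 9.73, 8.27 and 8.50 in L1 controls (difference -0.49, SE 0.60, limma adjusted p = 0.916).

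The L1 groups also differed in measures of RNA quality, which did not all lean the same way. The Gapdh 3' minus 5' signal was 3.83 to 4.12 in L1 mutants, against 3.16 to 3.83 in L1 controls. That of actin was 2.83 to 3.06 in L1 mutants, against 2.44 to 2.88 in L1 controls. That of catalase leaned the other way, at 4.25 to 4.50 in L1 mutants, against 4.48 to 4.74 in L1 controls. With the Gapdh signal as a covariate 0 of 11 members passed, and the L1 difference of sqt-3 174910_at was 0.11 (limma adjusted p = 0.999) in place of -0.49.

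Whether the genotype difference itself differed between adults and L1 was tested as an interaction. By limma 0 of 11 members passed, where 0.914% of all probe sets did, and 0 of 11 reached an unadjusted p under 0.05, where 8.93% did. The interaction was -0.76 for dpy-2 184162_at (SE 0.40, limma adjusted p = 0.648) and -0.69 for dpy-7 (SE 0.34, limma adjusted p = 0.601), and the median over the members was -0.10. Without adult control array 1, 3 of 11 passed, where 2.49% of all probe sets did. These were dpy-2 184162_at (-1.27, limma adjusted p = 0.00194), dpy-2 173355_s_at (-0.845, limma adjusted p = 0.0109) and dpy-7 (-1.125, limma adjusted p = 0.00176), whose low signals on that array are among those that singled it out, so these calls depend on that choice too.

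Between stages, signals can be compared only as far as the scaling and the labelling allow. Array medians were 5.91 to 6.02 in adults and 4.73 to 4.76 at L1, and quantiles matched within a stage but not between stages. The Gapdh 3' minus 5' signal was -0.54 to -0.36 in adults and 3.16 to 4.12 at L1. Those of actin and catalase were also higher at L1. The scalings below do not remove this difference, and its part in the stage differences was not tested. On the deposited scale 9 of 11 member probe sets were higher in adult than in L1 worms in mutants, and 9 of 11 in controls, where 75.3% and 75.1% of all probe sets were. The median stage difference of the members was 1.13 in mutants and 1.205 in controls, against 0.91 and 0.90 over all probe sets. The exceptions were dpy-4, with 0.01 in mutants and 0.06 in controls, and sqt-3 174910_at, with 0.64 in mutants and 0.87 in controls. Without adult control array 1 the sqt-3 174910_at value in controls was 2.02 (limma adjusted p = 9.66e-05) and 10 of 11 were higher in controls.

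When all 14 arrays were brought to a common distribution, the median stage difference of the members was -0.29 in mutants and -0.18 in controls, where the median over all probe sets was -0.02 in both, so most members' direction depended on the scaling. The gene dpy-5 was higher in adults under each scaling, by 1.77 in mutants and 1.87 in controls on the deposited scale and by 0.57 and 0.54 on the common one. In controls dpy-2 was also higher under each, by 2.16 for 184162_at and 1.66 for 173355_s_at on the deposited scale and by 0.64 and 0.72 on the common one. So was dpy-7 in controls, by 2.04 on the deposited scale. On the common scale dpy-7 was higher by 0.47 and did not pass (limma adjusted p = 0.0551). On the common scale rol-6 (-0.97, limma adjusted p = 0.00122), dpy-4 (-1.01, limma adjusted p = 0.000327) and dpy-13 (-0.41, limma adjusted p = 0.0107) were lower in adult than in L1 controls.

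Ranks within an array do not use the scale, but they too can carry the labelling difference between stages. The signal of dpy-5 ranked at percentile 53.2 in adult mutants and 56.5 in adult controls, against 44.0 in L1 mutants and 49.0 in L1 controls. That of rol-6 ranked at 58.9 in adult mutants and 61.4 in adult controls, against 64.6 in L1 mutants and 71.4 in L1 controls. That of dpy-2 184162_at ranked at 54.3 in adult mutants and 63.8 in adult controls, against 52.7 in L1 mutants and 57.1 in L1 controls. The brightest members stayed near the top, with dpy-4 at 96.8 in adult mutants and 97.9 in adult controls, against 98.6 in L1 mutants and 99.0 in L1 controls.

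**Figure D4:**
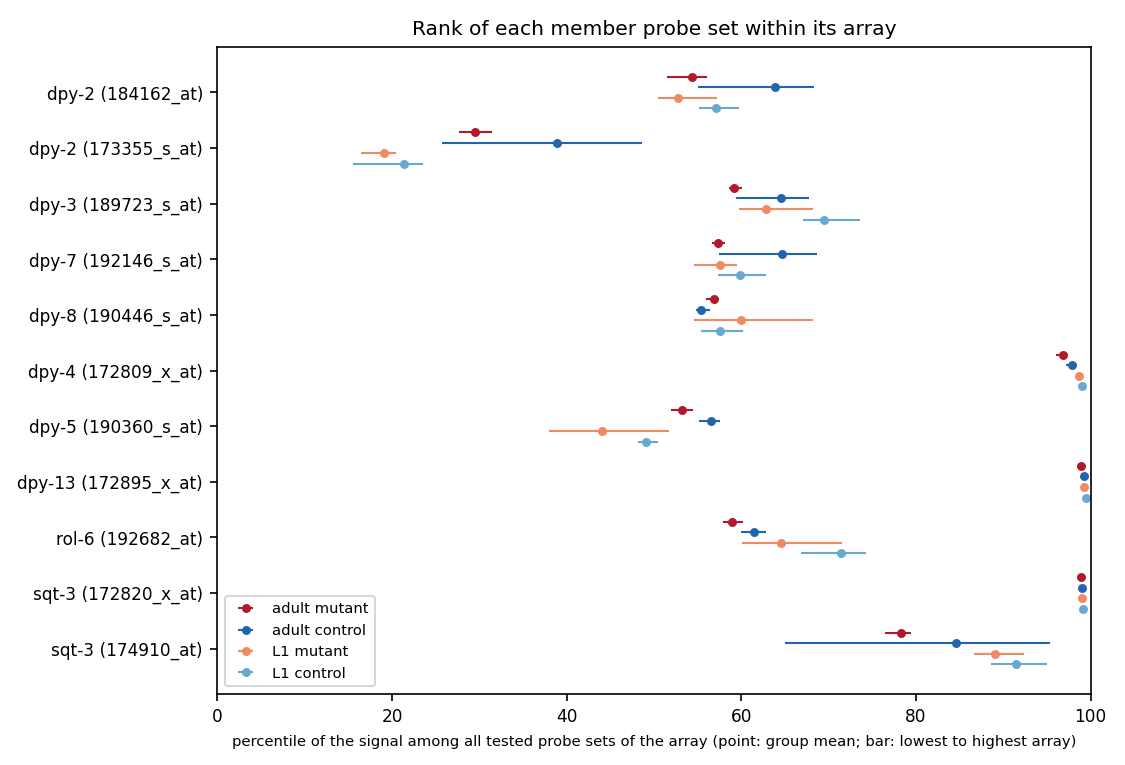
Percentile of each member's signal among all tested probe sets of an array (horizontal axis), as the group mean with a bar between the lowest and highest array; adult mutants, adult controls, L1 mutants and L1 controls run from top to bottom. Adult controls of dpy-2 and sqt-3 174910_at span wide ranges, and dpy-4, dpy-13 and sqt-3 172820_x_at lie above 95 in every group.

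The genes whose pattern was most like that of the members were sought over the 14 arrays after each array was centred on its stage. The median of the members was 0.30 and 0.38 on adult control arrays 2 and 3 and -0.13 on control array 1, against -0.285 to -0.19 on the adult mutant arrays. Of 17109 other genes, the 5 highest Pearson correlations with that median belonged to col-121 (r = 0.940), col-182 (r = 0.935), fbxa-156 (r = 0.925), lbp-1 (r = 0.920) and col-132 (r = 0.917). The genes col-121, col-182 and col-132 encode cuticle collagens, fbxa-156 an F-box protein and lbp-1 a lipid-binding protein. The arrays share the differences between genotypes and the low adult control array, so r is a description.

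Among the other body-shape and blister collagens, 0 of 11 measured genes of 12 passed at either stage, with medians of -0.14 in adults and -0.22 at L1. All 11 had differences below 0 at both stages, against 41.5% of all probe sets in adults and 47.9% at L1. Some were close to 0, and they ran from -0.02 in bli-2 to -0.95 in dpy-14 in adults. At L1 they ran from -0.06 in bli-1 to -0.52 in ram-2. The gene with the smallest p was ram-2, a collagen needed for normal male tail rays, at -0.36 in adults (limma adjusted p = 0.563) and -0.52 at L1 (limma adjusted p = 0.0971, and 0.0104 with the replicate block). With adult control array 1 left out, 2 of 11 were lower in adult mutants, where 2.82% of all probe sets were. The col-named collagen genes, which hold no member, gave 0 of 128 called in adults, and 18 lower and 4 higher at L1, where 0.789% of all probe sets were lower and 0.35% higher. In adults 19 of 128 were lower in mutants without control array 1, where 2.82% of all probe sets were.

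Genes that make and cross-link collagen did not pass at either stage, 0 of 12 measured of 13. Their median difference was -0.14 in adults and 0.06 at L1. The smallest p belonged in adults to pdi-6, a protein disulfide isomerase (-0.46, limma adjusted p = 0.152), and at L1 to bli-5, a protease inhibitor-like gene of the cuticle (-0.19, limma adjusted p = 0.328). In adults 1 of 12 was lower in mutants without control array 1, where 2.82% of all probe sets were.

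Of the epidermal transcription factors of cuticle genes, 0 of 12 passed at either stage. The gene elt-1, a GATA factor that specifies the epidermis, measured 6.90, 7.13 and 7.22 in adult mutants, against 7.45, 8.02 and 7.88 in adult controls. Its 3 mutant arrays lay below all 3 controls, control array 1 included, an order that 5.89% of all probe sets showed. The difference was -0.70 (SE 0.16), with a limma adjusted p of 0.0514 with all arrays and 0.00442 without control array 1 (range over 23 alternatives 0.000106 to 0.313). The lowest p at L1 belonged to lin-29, a zinc-finger factor of the larval-to-adult switch (0.33, limma adjusted p = 0.455). Of these factors, 3 of 12 were lower in adult mutants without control array 1, where 2.82% of all probe sets were.

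On the moulting and apical matrix list 0 of 13 passed at either stage, with medians of -0.29 in adults and 0.02 at L1. The smallest adult p belonged to noah-1, an apical matrix protein of the epidermis, which measured 7.0, 7.24 and 7.47 in adult mutants, against 6.97, 9.76 and 10.06 in adult controls. Control array 1 was the lowest of the 6 arrays. The difference was -1.69 (SE 0.55, limma adjusted p = 0.263) with all arrays and -2.67 without control array 1 (limma adjusted p = 8.98e-06). The related noah-2, named after its values were seen, measured 7.16, 7.12 and 7.31 in adult mutants, against 6.96, 8.97 and 9.0 in adult controls. Without control array 1, 5 of 13 genes of the list were lower in adult mutants, where 2.82% of all probe sets were. At L1 the smallest p was that of nas-37, an astacin protease of moulting (0.15, limma adjusted p = 0.912).

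Genes tied to the responses that follow furrow loss, sta-2, osm-8 and osm-11 among them, gave 1 call among 16 measured of 17. In adults 1.02% of all probe sets passed. The antimicrobial peptide gene cnc-4 measured 9.40, 9.02 and 9.11 in adult mutants, against 8.16, 7.99 and 8.03 in adult controls. All 3 mutants lay above all 3 controls, an order that 7.39% of all probe sets showed, and control array 1 lay close to the other controls. It rose by 1.12 (SE 0.24, limma adjusted p = 0.0429), and by 1.17 without control array 1 (limma adjusted p = 0.0342). The call ended without adult mutant array 1 (limma adjusted p = 0.212), 2 (0.0915) or 3 (0.125), without adult control array 2 (0.197) or 3 (0.149), without L1 control array 1 (0.0620), 2 (0.0516) or 4 (0.0624), and with the Gapdh covariate (0.0644). At L1 cnc-4 was lower in mutants by 0.45 (-0.45, limma adjusted p = 0.506), and its interaction was 1.57 (limma adjusted p = 0.0336). The list's median was 0.12 in adults and -0.18 at L1, where nlp-30, another antimicrobial peptide gene, had the smallest p (-1.21, limma adjusted p = 0.245).

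The TGF-beta pathway that sets body size had 0 of 10 genes called at either stage, with medians of -0.06 in adults and 0.03 at L1. Its smallest p belonged in adults to lon-1, a secreted regulator of body length (0.75, limma adjusted p = 0.251), and at L1 to sma-4, a Smad protein (-0.30, limma adjusted p = 0.427). Of the seam and epidermal markers 0 of 11 measured of 12 passed at either stage, with medians of -0.20 in adults and 0.05 at L1. There the smallest p belonged in adults to wrt-10 (-0.55, limma adjusted p = 0.546, and -0.94 with adjusted p = 0.000809 without control array 1) and at L1 to grd-10 (-0.40, limma adjusted p = 0.236), both hedgehog-related genes. Of the intestine, body muscle, neuron, germline and pharynx markers 0 passed at either stage. Without adult control array 1, 1 of 5 body muscle markers and 1 of 3 pharynx markers were lower in adult mutants, where 2.82% of all probe sets were.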

How the data were processed

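The values were log2 signals per probe set as deposited by the authors for 14 arrays, with biotin-labelled cRNA made from total RNA, per the labels' protocols. How background, summary and normalization were handled is not stated in the labels or the file; the log2 unit was read from the values. The 77 control probe sets were left out. Probe sets were named from the platform annotation, where 20766 had 1 gene, 887 several and 895 none listed. For other genes, the probe set brightest on average stood for the gene.

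One limma 3.58.1 fit in R 4.3.3 (lmFit, eBayes) gave 4 group means, with 10 residual and 4.18 prior degrees of freedom. Two-sided p-values were adjusted over 22548 probe sets (Benjamini-Hochberg), with a threshold of 0.05. The number of arrays limits precision (median SE 0.107 at L1 and 0.123 in adults). The p-values measure the spread between these samples, which may be technical. The script was tested on simulated data.

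Same-numbered L1 mutants and controls deviated together (r = 0.423, 0.317, 0.188 and 0.236), so the numbers were taken to pair them. The other L1 pairs had r of -0.332 to 0.182. In adults r was 0.437, 0.108 and 0.036, against -0.337 to 0.326 in other pairs, so the adult numbers were not taken to pair arrays. Members and lists were chosen with earlier results of these data known. Up to 3 called genes were named per list, or the 1 with the smallest p, and the 5 genes most like the members. Alternatives were a replicate block, 3 normalizations, a dim filter, another variance model, array weights, a Gapdh covariate, only the contrast's groups, and leaving out each array.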

Additional observations from a re-analysis of the deposited data

Results flagged for a closer look

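Of 22 member results in the 2 groups of 4 arrays, 1 had an array far from the others. In the dim dpy-2 probe set 173355_s_at, L1 control array 1 measured 3.50, and the other L1 controls measured 3.66 to 3.69. That gap was 0.842 of the group's range, past Dixon's critical value for 4 samples, which chance exceeds in about 1 in 20 groups.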

How the results depend on the processing

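Counts and medians of the members changed with few settings. In adults 6 members were called without control array 1, 8 with array weights (8.85% of all probe sets; weight 5.03 for control array 2 and 0.520 for control array 1) and 2 with a replicate block (dpy-2 184162_at and dpy-13; 1.89% of all probe sets); at L1 2 were called with the block and 1 without mutant array 2, and 3 in the interaction without adult control array 1. The block changed no other call of a member. The labels do not pair the adult arrays, whose same-numbered r was 0.437 for number 1 and 0.108 and 0.036 for the others. Adult mutant array 1 deviated with control array 1 and stayed in the fits without that control array. Leaving out single arrays gave 0 to 1 called at L1 (median -0.35 to -0.25), 0 to 6 in adults (-0.69 to -0.33), 0 to 3 in the interaction (-0.31 to -0.01), and 9 to 10 and 9 to 9 for the stages in controls and mutants. Joint quantile normalization moved the median stage difference to -0.2919 in mutants (4 called) and -0.1835 in controls, and centring on medians to -0.0742 (4 called) and -0.0217; the median over all probe sets was then -0.02 in both genotypes under joint quantiles, and -0.29 in mutants and -0.33 in controls under centring. Stage differences in controls that turned under joint quantiles were dpy-3 -0.4761, dpy-8 -0.1835, dpy-4 -1.0106, dpy-13 -0.4053, rol-6 -0.9716, sqt-3 172820_x_at -0.1484 and sqt-3 174910_at -0.6494. Under centring they were dpy-8 -0.0217, dpy-4 -1.17, dpy-13 -0.6517, rol-6 -0.5042, sqt-3 172820_x_at -0.3142 and sqt-3 174910_at -0.3558. In mutants only dpy-2 and dpy-5 were followed gene by gene under these scalings, and of these dpy-2 173355_s_at turned, at -0.0225 under centring. The control stage difference of dpy-4 was -0.0561 with the Gapdh covariate, and -0.08 to 0.245 when single arrays were left out. At L1 sqt-3 174910_at was 0.1051 with that covariate, and dpy-8 was -0.0317 to 0.295 when single arrays were left out, the lowest without mutant array 2. The causes were not tested. Only-2-group fits give no interaction, and the dim filter removes dpy-2 173355_s_at. Signal near the array floor limits that probe set.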
